A study of Mus musculus with 12 samples.

Results

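CD103, the integrin αE chain encoded by Itgae, and 9 other integrin chain genes were followed in group 2 innate lymphoid cells (ILC2s), lymphocytes of barrier tissues that release type 2 cytokines and carry no rearranged antigen receptor. The genes are Itgae, Itgb7, Itga4, Itgal, Itgb2, Itgb1, Itgav, Itgb3, Itga1 and Itga2, 10 of 29542 genes with a matched transcript, and all 10 were among the 14431 genes tested. The list was chosen by the measured genotype difference of Itgae, which earlier results of these libraries had called, so the genotype values of Itgae are given below as a description with no test, and the other chains are set beside them. Fold changes and counts are read in 4 comparisons between groups, in the average of the genotype comparisons over both times and in the genotype by time interaction.

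RNA was sequenced from ILC2s sorted from skin-draining lymph nodes of mixed bone marrow chimeras on the C57BL6 strain, 3 libraries in each of 4 groups. CD45.1 congenic hosts had received 950 cGy and equal parts of marrow from Rag1 knockout donors, marked CD45.2, and from wild-type (WT) donors, marked CD90.1. The groups are Rag1 knockout-labelled cells at 20 weeks, WT cells at 20 weeks, Rag1 knockout-labelled cells at 8 weeks and WT cells at 8 weeks after transplant. Every group had IL-33, which expands ILC2s, for 7 days before harvest, as 30 ng into each cheek and 240 ng into the peritoneum each day. For the later harvest the series text states a different week, and the 20 weeks on the samples were kept. Genotype and donor marker cannot be told apart in this design, nor can time after transplant and anything else that differed between the 2 harvests. Nothing states that replicates are different animals, so p-values measure only the spread between these samples, which may be technical. In bulk RNA, fewer cells that express a gene and less of its RNA per cell cannot be told apart.

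Libraries held 11433625 to 32529806 estimated reads, and 2 libraries of 8 weeks, knockout-labelled replicate 3 and WT replicate 2, lay apart from the rest on principal components. Rag1 had 0 estimated reads in all 6 WT libraries and 10.8 to 18.4 in 5 of the 6 knockout-labelled libraries. The part of Rag1 removed is not given, so these few reads cannot check the labels. Every genotype direction below is that of libraries as labelled. Thy1, which encodes CD90, lay at 16.8 to 37.8 CPM (reads scaled to library size with TMM factors) in knockout-labelled libraries and at 2.96 to 5.70 CPM in WT libraries. The Y-linked gene Ddx3y had 101 to 113 CPM in WT at 20 weeks alone and 0.395 to 1.91 CPM in the other 9 libraries. The sex of the donor cells therefore cannot be told apart from label at 20 weeks or from time in WT cells, and it enters the genotype average and the interaction. The 12 ILC2 markers listed, among them Gata3, Il1rl1 and Il7r, summed to 5808 to 8775 CPM in every library. None was at 0 throughout, and at 20 weeks the sums were 7439 to 7881 CPM in the knockout-labelled libraries and 8138 to 8775 CPM in WT libraries, without overlap.

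Integrins are surface receptors made of an α and a β chain that bind cells to each other or to matrix, and the partner of a chain decides its ligand. The αE chain pairs only with β7, and the pair binds E-cadherin on epithelial cells. On lymphocytes it marks many cells that stay in skin, gut and other epithelia, and TGF-β is known to induce it in T cells. The β7 chain also pairs with α4 to bind the gut vessel ligand MAdCAM-1. The α4 chain with β1 binds VCAM-1 and fibronectin, αL with β2 forms LFA-1, which binds ICAMs, and α1 and α2 with β1 bind collagen.

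Itgae (ENSMUSG00000005947, GRCm38 chromosome 11, 73090583 to 73147446, plus strand) was estimated from 2 transcripts that share 26 exons. The coding one, ENSMUST00000006101, goes on from exon 26 to exon 27 of 31, while ENSMUST00000102537 runs past the end of exon 26 into the intron and ends there. The stretches below, read from GENCODE M21, show where they part, since most of their 20-base words are shared: 755 words are particular to the coding transcript among the gene's transcripts and 735 to the other. Lower case marks the last 20 bases of exon 26, and capitals the 20 bases that follow in each transcript. The second stretch is chr11:73134079-73134118, and the first jumps from 73134098 to 73138455.
Itgae coding transcript: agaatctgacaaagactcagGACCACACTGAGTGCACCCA
Itgae intron-retaining transcript: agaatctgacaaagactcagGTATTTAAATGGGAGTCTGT

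Itgae transcripts, summed over both, were lower in knockout-labelled libraries at both times. At 20 weeks they were at 74.7, 51.0 and 79.9 CPM in the knockout-labelled libraries, against 129.7, 97.6 and 143 CPM in WT libraries. At 8 weeks they were at 29.2, 45.7 and 26.5 CPM in the knockout-labelled libraries, against 96.8, 126 and 83.3 CPM in WT libraries. The groups did not overlap at either time. Of the 10 chains Itgae alone was lower without overlap at both times, a pattern held by 54 of the 14431 genes (0.374%), and it was part of what chose the gene. The log2 fold change was -0.85 (SE 0.26) at 20 weeks, -1.59 (SE 0.27) at 8 weeks and -1.22 (SE 0.19) in the average. That Itgae is among the 0.222% of all genes called in the average and the 0.201% called at 8 weeks is what chose it, and nothing is read from those calls. Without the 2 libraries that stood apart, the log2 fold change was -0.84 at 20 weeks, -1.26 at 8 weeks and -1.05 in the average. With single libraries left out it ranged from -1.36 to -1.13 in the average, where the gene was no longer among those called without knockout-labelled replicate 1 or 2 or WT replicate 3 of 20 weeks, or replicate 1 of the knockout-labelled libraries of 8 weeks. The 8-week value ranged from -1.88 to -1.41, and it was no longer called without replicate 1 or 3 of either label of 20 weeks, replicate 1 or 3 of the knockout-labelled or replicate 1 or 2 of the WT libraries of 8 weeks. Nor was it called at 8 weeks without both libraries that stood apart or on the 6 libraries of that time alone.

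The level of Itgae ran, from low to high, from knockout-labelled at 8 weeks (33.8 ± 10.4 CPM) over knockout-labelled at 20 weeks (68.5 ± 15.4 CPM) and WT at 8 weeks (102 ± 21.7 CPM) to WT at 20 weeks (123 ± 23.3 CPM; SD, n = 3 each). The 2 knockout-labelled groups did not overlap, and the WT groups did. The highest knockout-labelled library of 20 weeks, at 79.9 CPM, lay just under the lowest WT library of 8 weeks, at 83.3 CPM. Between times, the log2 fold change of 20 over 8 weeks was 1.02 (SE 0.26) in knockout-labelled cells and 0.28 (SE 0.26) in WT cells. Neither was called by edgeR (adjusted p = 0.314 and 0.703), although DESeq2 called the first (adjusted p = 0.0422). In that comparison DESeq2 called 150 of 14405 genes, and edgeR 9 of 14431. The difference between the 2 genotype effects, 0.74 (SE 0.37), was not called (edgeR adjusted p = 1). These time values come from the libraries that chose the gene.

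**Figure D1:**
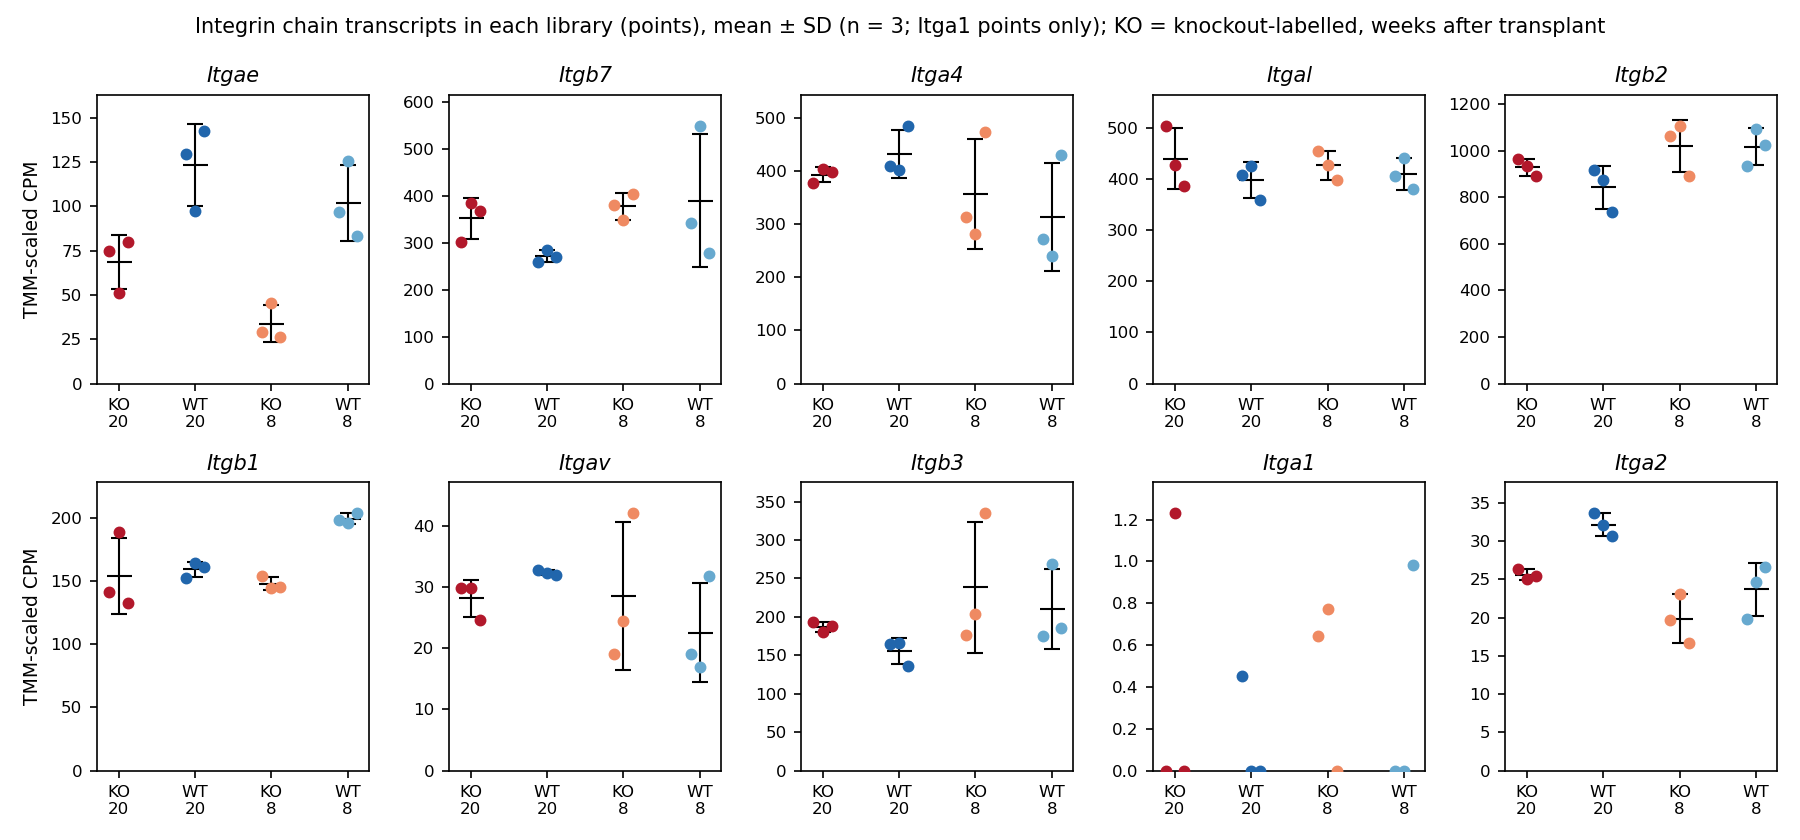
TMM-scaled CPM (y axis, linear from 0) of the 10 integrin chains in each library (points), with group mean and SD as bars (n = 3 each; Itga1 as points only), by label (KO, knockout-labelled) and weeks after transplant. Knockout-labelled libraries lie below the WT libraries of the same time for Itgae at both times, while Itgb7 in WT at 8 weeks spans 278 to 549.8 CPM.

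The intron-retaining transcript held 18.4% to 21.9% of the TPM (abundance per transcript length) of Itgae in knockout-labelled libraries of 20 weeks and 17.6% to 17.8% in WT libraries of that time. At 8 weeks it held 17.1%, 26.8% and 36.0% in knockout-labelled libraries and 20.3%, 24.6% and 16.2% in WT libraries. The groups of 20 weeks lay close together without overlap, and those of 8 weeks overlapped. The coding transcript alone was at 22.5, 15.2 and 21.8 TPM in knockout-labelled libraries and 38.1, 29.7 and 38.5 TPM in WT libraries at 20 weeks. The 8-week values were 7.23, 10.3 and 5.16 TPM in knockout-labelled libraries and 24.4, 27.4 and 21.7 TPM in WT libraries, so it was lower in the same libraries as the sum. Haspin (chr11:73135485-73138294), a histone kinase gene on the opposite strand, lies in the intron after exon 26 and touches no exon of the coding Itgae transcript. It lay between 3.95 and 12.1 CPM in all libraries, with a log2 fold change of 0.08 (SE 0.26, edgeR adjusted p = 1) in the average.

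Itgb7 (ENSMUSG00000001281, chromosome 15, 102215995 to 102231944), the partner chain, was not called in any comparison. At 20 weeks it was at 302, 386 and 368 CPM in the knockout-labelled libraries, against 260.2, 285 and 269.9 CPM in WT libraries. In the earlier harvest, at 8 weeks, values were 381, 348 and 405 CPM in the knockout-labelled libraries, against 342, 549.8 and 278 CPM in WT libraries. At 20 weeks all 3 knockout-labelled libraries were above the WT libraries, while at 8 weeks WT replicates lay on both sides of them. Log2 fold changes were 0.37 (SE 0.23) at 20 weeks and -0.04 (SE 0.23) at 8 weeks, and neither passed the test (edgeR adjusted p = 1 for each). Without the 2 libraries that stood apart the value at 8 weeks was 0.24. For 20 over 8 weeks the log2 fold change of Itgb7 was -0.10 (SE 0.23) in knockout-labelled cells and -0.52 (SE 0.23) in WT cells, with edgeR adjusted p values of 0.967 and 0.360. The WT value was -0.19 without the 2 libraries that stood apart.

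Per length, Itgae had fewer transcripts than its partner in every library, and the ratio differed between the labels. At 20 weeks the Itgae to Itgb7 ratio of TPM was 0.170, 0.0896 and 0.147 in knockout-labelled libraries, against 0.343, 0.237 and 0.363 in WT libraries. At 8 weeks it was 0.0528, 0.0902 and 0.0449 in knockout-labelled libraries, against 0.196, 0.158 and 0.205 in WT libraries. The groups did not overlap at either time, and the mean difference in log2 ratio was -1.24 at 20 weeks and -1.63 at 8 weeks. Within each label the ratio was also higher in every library of 20 weeks than of 8 weeks, except that the lowest knockout-labelled library of 20 weeks (0.0896) lay just under the highest of 8 weeks (0.0902). Itgae enters every one of these ratios, so they describe its genotype difference again and are given with no test. With CPM in place of TPM, or with 1 coding transcript per gene (an alternative chosen after seeing the data), the log2 difference lay between -1.27 and -1.22 at 20 weeks and between -1.75 and -1.63 at 8 weeks.

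**Figure D2:**
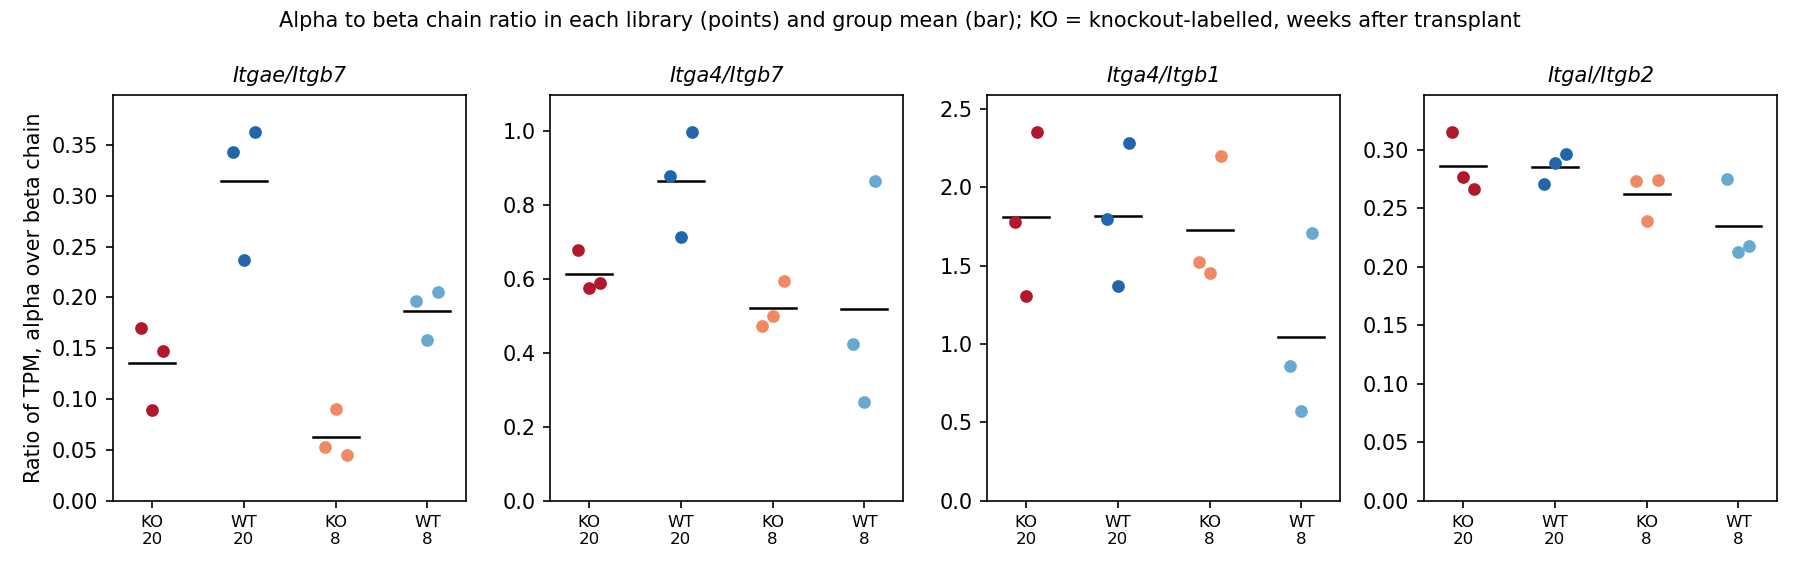
Ratio of TPM of an α chain to a β chain it can pair with (y axes, linear from 0), by library (points) and group mean (bars), n = 3 per group (KO, knockout-labelled). Itgae to Itgb7 averages 0.136 in knockout-labelled and 0.314 in WT libraries at 20 weeks, and 0.0627 in knockout-labelled and 0.186 in WT libraries at 8 weeks, with no overlap at either time, while Itgal to Itgb2 lies between 0.212 and 0.316 throughout.

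Itga4 (ENSMUSG00000027009, chromosome 2, 79255426 to 79333123), the other α chain that pairs with β7, was not called in any comparison. At 20 weeks it was at 378, 404 and 398 CPM in the knockout-labelled libraries, against 409.8, 403 and 485 CPM in WT libraries. For 8 weeks the values were 313, 281 and 474 CPM in the knockout-labelled libraries, against 272, 239.7 and 429.5 CPM in WT libraries. The labels overlapped at both times. At 8 weeks replicate 3 of each label was highest, and each knockout-labelled library was above the WT library of the same number. Log2 fold changes between labels were -0.14 (SE 0.25) at 20 weeks and 0.18 (SE 0.25) at 8 weeks (edgeR adjusted p = 1 for each). The value at 8 weeks was 0.19 (SE 0.15, edgeR adjusted p = 1) with the replicate number as a block and -0.23 without the 2 libraries that stood apart. The Itga4 to Itgb7 ratio of TPM was 0.576 to 0.677 in knockout-labelled libraries and 0.714 to 0.998 in WT libraries at 20 weeks, without overlap. At 8 weeks it was 0.473 to 0.595 in knockout-labelled libraries and 0.266 to 0.865 in WT libraries, with overlap.

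The transcripts of Itga4 were divided differently between the labels. ENSMUST00000099972 is the coding transcript, and ENSMUST00000126312, a processed transcript with no annotated coding sequence, runs past exon 13 of 28 into the intron. It reads through that whole intron (79288868 to 79289236), its exon goes on to 79289391, and it ends at 79292977. The stretches below show the last 20 bases of exon 13 in lower case and the 20 bases that follow in capitals. The second is chr2:79288848-79288887, and the first jumps from 79288867 to 79289237. Of their 20-base words, 7911 occur in the coding transcript and in none of the gene's other transcripts, and 1352 in the other one alone.
Itga4 coding transcript: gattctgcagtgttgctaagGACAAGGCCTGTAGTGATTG
Itga4 intron-running transcript: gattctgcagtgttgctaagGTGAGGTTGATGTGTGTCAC

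At 20 weeks ENSMUST00000126312 was at 29.1, 28.0 and 24.9 TPM in knockout-labelled libraries, against 8.02, 8.03 and 10.4 TPM in WT libraries. Values at 8 weeks were 8.58, 16.7 and 30.0 TPM in knockout-labelled libraries, against 3.75, 3.56 and 5.36 TPM in WT libraries. The labels did not overlap at either time. Its share of Itga4 TPM was 22.3% to 25.5% in knockout-labelled libraries and 6.76% to 8.04% in WT libraries at 20 weeks. At 8 weeks the share was 10.98% to 28.1% in knockout-labelled libraries and 4.89% to 5.79% in WT libraries. The coding transcript was at 37.5 to 39.6 TPM in knockout-labelled libraries and 41.8 to 45.1 TPM in WT libraries at 20 weeks, and overlapped at 8 weeks, at 21.7 to 40.8 TPM in knockout-labelled and 18.8 to 38.3 TPM in WT libraries. The transcript was picked after its values were seen and has no test. Itga4 lies 22.4 Mb from Rag1 on chromosome 2, and the part of that position in these shares was not tested. Cerkl, on the opposite strand, overlaps the last exon of Itga4 and lay at 30.2 to 47.8 CPM, and the labels do not say whether counting used strand.

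**Figure D3:**
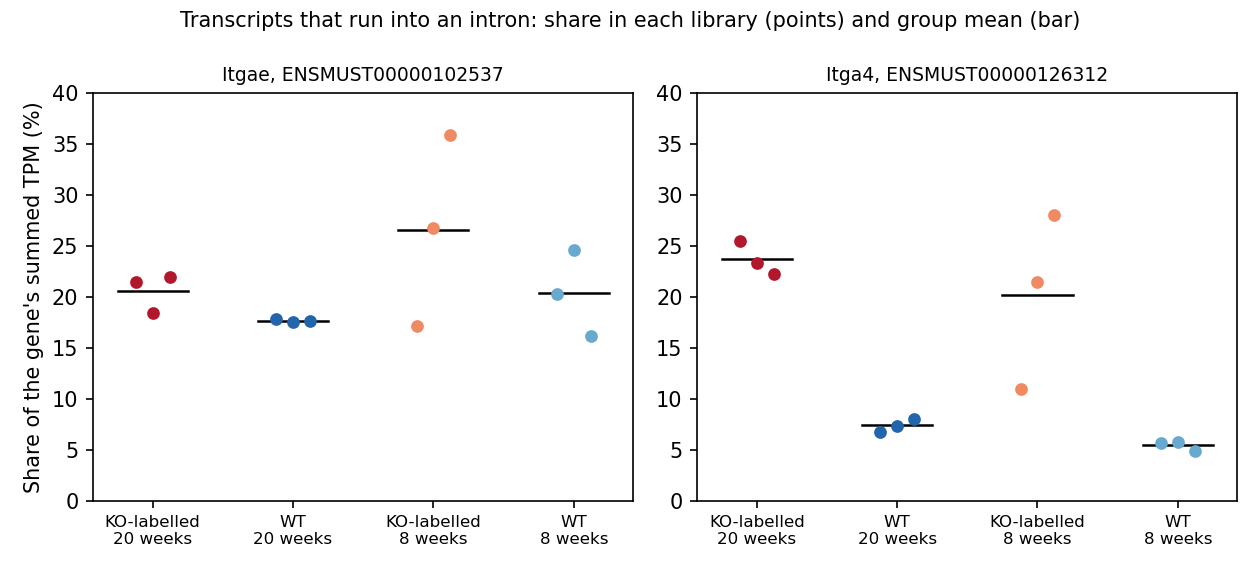
Share of a gene's summed TPM held by the transcript that runs into an intron (y axis, percent), in Itgae (left) and Itga4 (right), by library (points) and group mean (bars), n = 3 per group. For Itga4 the knockout-labelled libraries lie at 10.98% to 28.1% over both times and the WT libraries at 4.89% to 8.04%.

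Neither chain of LFA-1, the leukocyte integrin of αL and β2, was called in any comparison. Itgal (ENSMUSG00000030830, chromosome 7, 127296260 to 127335138) was at 504, 428 and 387 CPM in the knockout-labelled libraries and 409, 426 and 358 CPM in WT libraries at 20 weeks. The 8-week values were 454, 427 and 398 CPM in the knockout-labelled libraries and 406, 442 and 381 CPM in WT libraries. All 4 groups of Itgal overlapped. Itgb2 (ENSMUSG00000000290, chromosome 10, 77530252 to 77565708) was at 963, 933 and 890.5 CPM in the knockout-labelled libraries and 916, 876 and 737 CPM in WT libraries at 20 weeks. In the earlier harvest, at 8 weeks, values were 1064, 1107 and 894 CPM in the knockout-labelled libraries and 934, 1092 and 1025 CPM in WT libraries. The labels overlapped at both times, while the WT libraries of 20 weeks were all below those of 8 weeks. The average genotype log2 fold change was 0.10 (SE 0.12) for Itgal and 0.07 (SE 0.12) for Itgb2, and that of 20 over 8 weeks in WT was -0.27 (SE 0.17) for Itgb2, with edgeR adjusted p values of 1, 1 and 0.526.

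Itgb1 (ENSMUSG00000025809, chromosome 8, 128685654 to 128733200), the β chain shared by the collagen and fibronectin receptors, had its highest CPM, summed over transcripts, in WT cells of 8 weeks. At 20 weeks it was at 141, 189 and 133 CPM in the knockout-labelled libraries and 153, 164 and 161 CPM in WT libraries. For 8 weeks the values were 154, 144 and 146 CPM in the knockout-labelled libraries and 199, 196 and 204 CPM in WT libraries. The labels overlapped at 20 weeks and not at 8 weeks, when the 3 WT libraries were also above the WT libraries of 20 weeks. The log2 fold change between labels at 8 weeks was -0.43 (SE 0.16, unadjusted p = 0.0217), and it did not pass the test over all genes (edgeR adjusted p = 1). In WT replicate 2 of 8 weeks the long coding transcript held 30.6% of the gene's TPM, against 70.0% to 99.9% in the other 11 libraries. That transcript alone overlapped between labels at 8 weeks, at 45.2, 38.7 and 43.8 TPM in knockout-labelled libraries and 60.2, 32.8 and 64.0 TPM in WT libraries. The WT values of 8 weeks also overlapped those of 20 weeks (52.5, 57.2 and 52.5 TPM).

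Itgav (ENSMUSG00000027087, chromosome 2, 83724397 to 83806916) encodes αV, which binds ligands with an RGD sequence and takes part in activating TGF-β. It was at 29.9, 29.9 and 24.7 CPM in the knockout-labelled libraries and 32.9, 32.3 and 32.0 CPM in WT libraries at 20 weeks. Values at 8 weeks were 19.0, 24.4 and 42.2 CPM in the knockout-labelled libraries and 19.0, 16.9 and 31.8 CPM in WT libraries. At 20 weeks knockout-labelled libraries were below WT libraries without overlap, and at 8 weeks replicate 3 of both labels was highest. The average log2 fold change between labels was 0.06 (SE 0.21, edgeR adjusted p = 1), and it was below 0 without the 2 libraries that stood apart or without either of them. A coding fragment of 463 bases held 78.7% to 90.4% of Itgav TPM, and the long coding transcripts held 1.13 to 2.79 TPM of the gene's 19.0 to 61.5 TPM. Itgav lies 17.9 Mb from Rag1 on chromosome 2, and the part of that position in its values was not tested.

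Itgb3 (ENSMUSG00000020689, chromosome 11, 104608000 to 104670476) encodes β3, a partner of αV. It was at 193, 180 and 188 CPM in the knockout-labelled libraries and 165, 166 and 136 CPM in WT libraries at 20 weeks. The 8-week values were 176, 203 and 335 CPM in the knockout-labelled libraries and 175, 269 and 185 CPM in WT libraries. The highest value of each label at 8 weeks was in the library that stood apart. At 20 weeks the labels did not overlap, with a log2 fold change of 0.27 (SE 0.25, edgeR adjusted p = 1). The platelet chain gene Itga2b, whose product also pairs with β3, had 0.235 to 1.30 TPM, and the 5 platelet markers listed summed to 0.711 to 3.86 CPM.

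Of the 2 collagen receptor chains, Itga2 was present and Itga1 was near 0. Itga2 (ENSMUSG00000015533, chromosome 13, 114833081 to 114932100), which encodes CD49b, was at 26.4, 25.04 and 25.4 CPM in the knockout-labelled libraries and 33.7, 32.1 and 30.7 CPM in WT libraries at 20 weeks. In the earlier harvest, at 8 weeks, values were 19.7, 23.1 and 16.7 CPM in the knockout-labelled libraries and 19.9, 24.6 and 26.6 CPM in WT libraries. The labels did not overlap at 20 weeks and did at 8 weeks, and within each label the libraries of 20 weeks were all above those of 8 weeks. Its log2 fold change was -0.29 (SE 0.13, unadjusted p = 0.0459, edgeR adjusted p = 1) between labels in the average. For 20 over 8 weeks it was 0.37 (SE 0.18) in knockout-labelled cells and 0.44 (SE 0.18) in WT cells, with edgeR adjusted p values of 0.645 and 0.337. Itga1 (ENSMUSG00000042284, chromosome 13, 114953096 to 115101964), which encodes CD49a, a marker of resident type 1 innate lymphoid cells, had 0 estimated reads in 7 libraries and 13.6 to 42.0 in the other 5. A count of 0 allows up to 0.0864 to 0.296 CPM in those 7 libraries, for counting error only, and the most in any library was 1.23 CPM. The groups overlapped, and no fold is given for it.

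Of the 9 chains other than Itgae, 0 were called in the genotype average by edgeR, DESeq2 or limma-voom, where edgeR called 0.118% of all genes lower and 0.104% higher. In that average 1 of them, Itga2, had an unadjusted p under 0.05, against 3.71% of all genes. The median log2 fold change of the 10 chains was 0.07, against 0.01 over all genes tested. At 20 weeks 0 of the 9 were called by the 3 tools, where edgeR called 0.0554% of all genes, and 0 were under an unadjusted p of 0.05, against 2.08% of all genes. At 8 weeks 0 of the 9 were called by the 3 tools, and 1, Itgb1, was under it, against 3.61% of all genes. With the replicate number as a block, which the samples of 8 weeks allow, edgeR called 15 of all genes at 8 weeks in place of 29, again with 0 of the 9.

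The other 8 detected chains had average genotype log2 fold changes between -0.29 and 0.23. For the interaction 0 chains were called by any of the 3 tools, against 0.097% of all genes in edgeR, and 0 were under an unadjusted p of 0.05, against 2.18% of all genes. For 20 over 8 weeks in knockout-labelled cells 0 chains were called by edgeR, where 0.0624% of all genes were, and 0 by limma-voom. DESeq2 called 1, Itgae, among 150 of 14405 genes. Itgae was also the 1 chain under an unadjusted p of 0.05, against 8.33% of all genes. In WT cells 0 were called by the 3 tools, where edgeR called 0.513% of all genes, and 2 were under an unadjusted p of 0.05, Itgb7 and Itga2, against 13.3% of all genes.

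Groups without overlap in CPM were more numerous than calls. Between labels at 20 weeks they were 5 of the 10 chains, Itgae, Itgav and Itga2 lower and Itgb7 and Itgb3 higher in knockout-labelled cells, where 11.4% of all genes did not overlap, 6.08% lower and 5.34% higher. Between labels at 8 weeks they were 2 chains, Itgae and Itgb1, both lower, where 5.63% did not overlap, 2.71% lower and 2.92% higher. Between times they were 2 chains in knockout-labelled cells, Itgae and Itga2, both higher at 20 weeks, where 16.4% did not overlap, 8.12% lower and 8.32% higher. In WT cells they were 5 chains, Itgav and Itga2 higher and Itgb1, Itgb2 and Itgb3 lower at 20 weeks, where 19.3% did not overlap, 9.04% lower and 10.3% higher. These counts depend on the scale. In TPM, Itgb1, Itgb2, Itgb3 and Itgav overlapped between times in WT cells, and Itgav and Itga2 overlapped between labels at 20 weeks. Itga4, on the other side, did not overlap between times in knockout-labelled cells in TPM. The genotype and time comparisons share libraries, and the list was drawn up with these values known.

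**Figure D4:**
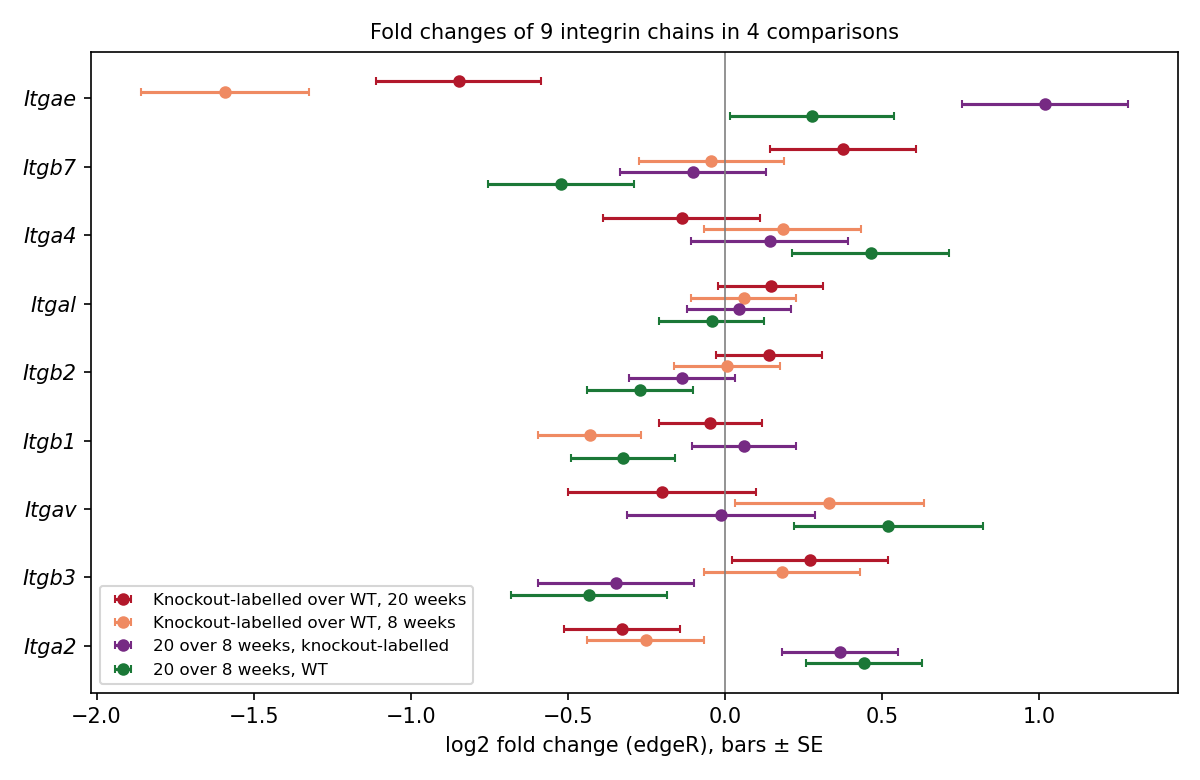
Log2 fold change (x axis) with SE bars from the edgeR fit for 9 chains in 4 comparisons (Itga1, near 0 reads, is left out). Itgae lies at -0.85 and -1.59 between labels, and the other 8 chains lie between -0.43 and 0.37 in those comparisons.

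Per length, the chains ranked Itgb2 (429 TPM, mean of 12 libraries), Itgb7 (167 TPM), Itgal (114 TPM), Itga4 (100.2 TPM), Itgb1 (67.3 TPM), Itgb3 (43.0 TPM), Itgav (39.4 TPM), Itgae (27.4 TPM), Itga2 (7.74 TPM) and Itga1 (0.0717 TPM). Itgae had the widest range, 8.06 to 46.8 TPM, a 5.80-fold span between the highest and lowest library. That span includes the genotype difference that chose the gene, so it is a description. The other 8 detected chains spanned 1.58-fold to 3.24-fold. Counting only long coding transcripts, Itga4 was at 34.9 TPM, Itgae at 21.9 TPM and Itgav at 1.91 TPM, so that Itgb1 and Itgb3 ranked above Itga4 and Itga2 above Itgav.

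**Figure D5:**
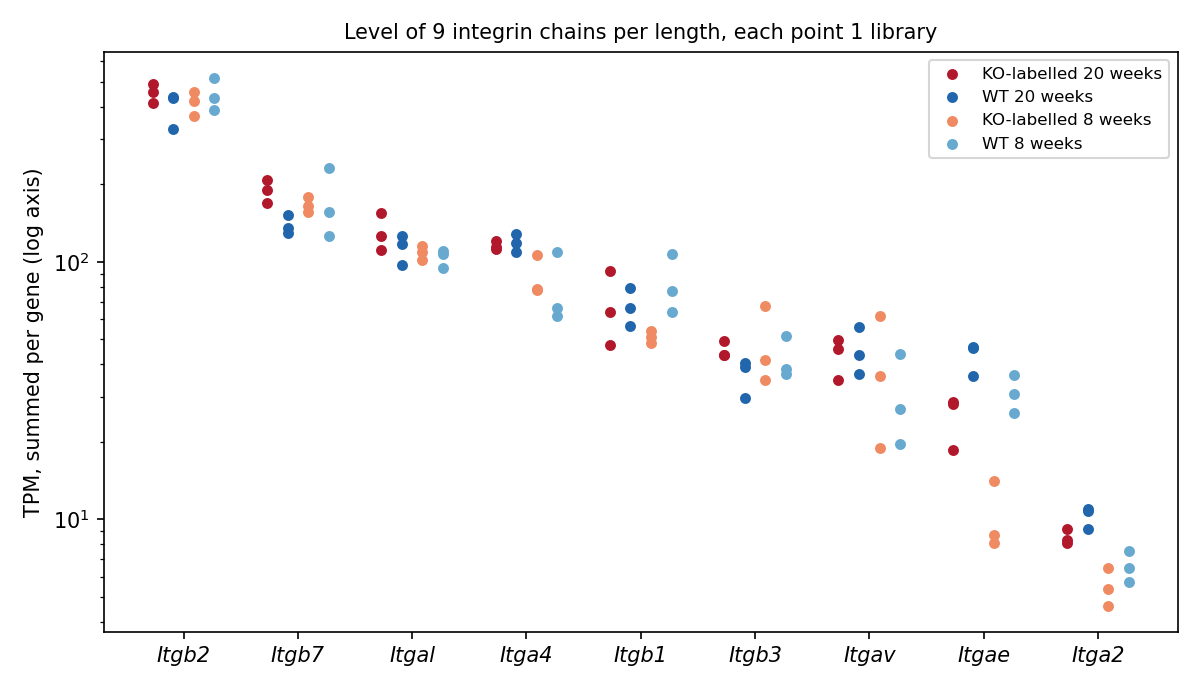
TPM summed per gene (y axis, log scale) of 9 integrin chains in each of 12 libraries (points), in order of mean level, with groups side by side (KO-labelled, knockout-labelled). Itgb2 lies at 328 to 518 TPM and Itgae between 8.06 and 46.8 TPM, with the knockout-labelled libraries of 8 weeks lowest.

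The genes whose log2 CPM was most like that of Itgae over the 12 libraries were Slc9a9, an endosomal sodium and proton exchanger (Pearson r = 0.93), Ctse, the protease cathepsin E (r = 0.92), Fam189b (r = 0.90), Il18r1, a chain of the IL-18 receptor (r = 0.89), and Serpinb1a, a protease inhibitor (r = 0.88). Il18r1 averaged 36.6 CPM in knockout-labelled and 60.1 CPM in WT libraries at 20 weeks, and 26.8 CPM in knockout-labelled and 49.3 CPM in WT libraries at 8 weeks. These correlations are descriptions over libraries that share 4 groups and differ in depth. Among the other chains Itga2 was closest (r = 0.76, 63rd of 14430 genes), followed by Itgb1 (r = 0.32). Itgb7, the partner of αE, had r = -0.34, and Itgb3 had r = -0.48. These values include the differences between groups. On deviations from group means, r with Itgae was 0.39 for Itga2, -0.63 for Itgb1, 0.15 for Itgb7 and -0.05 for Itgb3. Among all pairs of the 10 chains the highest r was that of Itga4 with Itgav, 0.90, both on chromosome 2.

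Cells of other types also carry integrins. The marker sums of T cells and B cells were lower in knockout-labelled libraries at 20 weeks, as was that of ILC2s. At 8 weeks these sums overlapped between labels. The other sums below overlapped at both times. T cells can carry CD103, and their 11 listed markers summed to 732 to 922.5 CPM in the knockout-labelled libraries and 929.9 to 1073 CPM in WT libraries of 20 weeks, without overlap. At 8 weeks they summed to 613 to 1005 CPM in the knockout-labelled libraries and 942 to 1191 CPM in WT libraries. Of the 11, 0 were at 0 in all libraries. The list was mixed: Cd3e, Cd4, Cd8a and Cd5 were at 0 to 3.75 CPM, while Trbc1, Trbc2 and Lck made up most of the sum. In the genotype average 3 of the 10 tested had an unadjusted p under 0.05, all lower, against 3.71% of all genes. Of them 0 were called by edgeR or limma-voom and 1, Cd3e, by DESeq2, which called 76 of 14405 genes there. The 8 dendritic cell markers summed to 608 to 724 CPM in the knockout-labelled libraries and 477 to 818 CPM in WT libraries of 20 weeks, mostly H2-Ab1. At 8 weeks they summed to 318 to 1212 CPM in the knockout-labelled libraries and 706 to 1162 CPM in WT libraries. Clec9a was at 0 in all libraries and Itgax, which encodes CD11c, at 0 to 0.162 TPM. The 3 regulatory T cell markers summed to 25.9 to 45.2 CPM in the knockout-labelled libraries and 33.6 to 38.6 CPM in WT libraries of 20 weeks. At 8 weeks they summed to 27.3 to 34.7 CPM in the knockout-labelled libraries and 20.9 to 48.7 CPM in WT libraries. The 7 B cell markers, mostly Cd79b, Igkc and Ighm, summed to 163 to 198 CPM in the knockout-labelled libraries and 204 to 318 CPM in WT libraries of 20 weeks, without overlap. Their sums at 8 weeks were 189 to 573 CPM in the knockout-labelled libraries and 171 to 379.9 CPM in WT libraries, while Pax5 and Ms4a1 reached at most 0.998 and 2.05 TPM in any library. The 6 markers of NK cells and ILC1s, mostly Gzma, summed to 52.5 to 69.6 CPM in the knockout-labelled libraries and 35.0 to 57.8 CPM in WT libraries of 20 weeks, with Ncr1 at 0 to 0.997 TPM. Their sums at 8 weeks were 73.5 to 228 CPM in the knockout-labelled libraries and 58.1 to 233 CPM in WT libraries. The single markers named for each cell type were picked after their values were seen. The part of any such cells in the Itgae values was not tested.

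Other genes of integrin function were read from lists, with 0 called between labels by edgeR or limma-voom in the average, at 20 weeks or at 8 weeks. DESeq2 called 1 of their genes between labels, Ptk2b, lower at 8 weeks, where it called 75 of 14405 genes. Over all genes 3.71% had an unadjusted p under 0.05 in the average. Of 17 other integrin chains 9 were tested, with 0 at an unadjusted p under 0.05 in the average. The 2 with the smallest p were Itga5, the fibronectin receptor chain (log2 fold change 0.66, SE 0.36), and Itgam, which encodes CD11b (-2.19, SE 1.38). Itga6, a laminin receptor chain, was the highest of these chains at 2.81 to 7.88 TPM.

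Of 25 integrin ligands 12 were tested, with 1 at an unadjusted p under 0.05 in the average, Cdh1, which encodes E-cadherin, the ligand of CD103. Cdh1 was at 0.202, 0.352 and 0.596 CPM in the knockout-labelled libraries and 3.04, 2.17 and 1.01 CPM in WT libraries at 20 weeks. For 8 weeks the values were 0.682, 0.337 and 0 CPM in the knockout-labelled libraries and 1.14, 1.48 and 0.858 CPM in WT libraries. The labels did not overlap at either time, all at 3.04 CPM or less, and the average log2 fold change of -2.05 (SE 0.59) was not called (edgeR adjusted p = 0.631). F11r, which encodes the junction protein JAM-A, was at 1.68 (SE 1.03) on the same scale. The LFA-1 ligand genes were the highest, Icam2 at 56.3 to 144 TPM and Icam1 at 15.8 to 44.0 TPM, whereas Madcam1 was at 0 to 0.927 TPM.

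Of 51 adaptors and activators that link integrins to the cytoskeleton 47 were tested, with 3 at an unadjusted p under 0.05 in the average. Ptk2b, the kinase Pyk2, had means of 119 ± 4.73 CPM (knockout-labelled) and 93.8 ± 21.6 CPM (WT) at 20 weeks, and of 106 ± 17.9 CPM (knockout-labelled) and 229 ± 31.0 CPM (WT) at 8 weeks (SD, n = 3 each). It fell in WT cells at 20 weeks relative to 8 weeks (log2 fold change -1.29, SE 0.20, edgeR adjusted p = 0.0144) and was the 1 gene of this list called in any comparison by edgeR. Of 32 genes of TGF-β signalling 27 were tested and 0 were called in any comparison by edgeR or limma-voom. DESeq2 called 1, Tgfbr3, lower at 20 than at 8 weeks in knockout-labelled cells, where it called 150 of 14405 genes. In the genotype average 3 of the 27 had an unadjusted p under 0.05. Those with the smallest p were Smad3, a signal transducer (log2 fold change 0.41, SE 0.13, edgeR adjusted p = 0.903), and Eng, a co-receptor (1.01, SE 0.43, adjusted p = 1).

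Of 32 genes of tissue residency and its regulators 30 were tested, and their calls lay between times. In WT cells 5 fell and 1 rose at 20 weeks relative to 8 weeks, and in knockout-labelled cells 3 fell. Over all genes edgeR called 0.513% for time in WT cells and 0.0624% in knockout-labelled cells. Cd69, a surface marker of resident and activated lymphocytes, was at 78.8 ± 12.4 CPM at 20 weeks and 275 ± 77.5 CPM at 8 weeks in knockout-labelled cells (log2 fold change -1.80, SE 0.27, edgeR adjusted p = 0.0379). In WT cells it was at 102 ± 22.1 CPM at 20 weeks and 299.9 ± 79.3 CPM at 8 weeks (-1.55, SE 0.27, adjusted p = 0.0265). The early response genes Nr4a1 and Nr4a2 also fell in both. In WT cells the regulators Bhlhe40 (-0.88) and Rgs2 (-1.38) fell and the ATP receptor gene P2rx7 rose (2.13). With the number of threads recorded in the file headers as a covariate, 4 were called in WT cells, Cd69, Nr4a1, Nr4a2 and Rgs2, and 0 in knockout-labelled cells. Of all 14431 genes, that fit called 57 for time in WT cells and 0 in knockout-labelled cells, so the latter count says nothing particular about these genes. Over the same interval Itgae had positive log2 fold changes in both labels, not called by edgeR.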

How the data were processed

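Per the file headers, the deposited tables list, transcript by transcript, TPM and an expected count (the estimated number of reads). The program named there is sailfish 0.6.3, run with k-mers of 20 bases on Ensembl release 76 transcripts. Other tools appear only in the submitters' processing notes: featureCounts 1.4.5, Subread, STAR 2.0.4b and bcl2fastq. No source used here states the strand. Sailfish ran on 24 threads for all knockout-labelled libraries of 20 weeks and 1 library of each other group, and on 8 threads for the other 6 libraries. A k-mer method loses reads that differ from the reference, and it divides reads shared by transcripts by a model.

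Transcript identifiers were looked up in GENCODE M21, on GRCm38, which held 83739 of 86127 (97.2%), and their values were added up per gene (29542 genes). Those not found held 1.01% to 1.54% of reads. Summed counts were rounded, filtered with filterByExpr, TMM-scaled and fitted on 4 group means with the edgeR 4.0.16 quasi-likelihood test. Genes with p under 0.05 after Benjamini-Hochberg adjustment over 14431 genes count as called. The script was tested on simulated data. TPM served for levels and ratios between genes, and log2 CPM (prior count 1) for correlations. Floors take 3 counts as the limit that a count of 0 allows. Long coding transcripts are those of at least 50% of the longest coding length.

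Alternatives were DESeq2 1.42.0, limma 3.58.1 (voom), RLE size factors, no filter, length-scaled counts, threads as a covariate, a replicate block, and fits without single libraries, without the 2 that stood apart, on the 6 compared or on those of 8 threads. The text names all 10 members, the 5 genes most like Itgae, genes overlapping Itgae, list members called in a contrast or else the 2 of smallest p in the genotype average, and Rag1, Thy1 and Ddx3y. Further genes, transcripts and neighbours were named after their values were seen. The members and lists were chosen with earlier results of these data known. Sequences are from GENCODE M21 transcripts. Replicate numbers were taken to pair samples where the deviations from the group means of every same-numbered pair correlated above 0.1. The correlations were 0.203, 0.144 and 0.109 at 8 weeks, which meets this, and 0.066, 0.063 and 0.106 at 20 weeks, which does not. The pairing comes from the data, since the labels do not say what a number marks. Fold changes, SEs and p values at 8 weeks are from the fit on 4 group means, without pairs, unless a block or another alternative is named.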

Additional observations from a re-analysis of the deposited data

How the results depend on the processing

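The chains other than Itgae were not called in any comparison under any of the alternatives. Between labels the 1 chain called was Itgae, whose call chose the list, so the label counts below are a description. In the genotype average the count of called chains, 1 as reported, was 0 to 1 with single libraries left out. It was 0 without knockout-labelled replicate 1 or 2 or WT replicate 3 of 20 weeks, or without knockout-labelled replicate 1 of 8 weeks (adjusted p of Itgae up to 0.0631). Between labels at 8 weeks the count, also 1, was 0 to 1 with single libraries left out. It was 0 without either outer replicate (1 or 3) of either label of 20 weeks, without knockout-labelled replicate 1 or 3 or WT replicate 1 or 2 of 8 weeks, without both libraries that stood apart, on the 6 libraries of 8 weeks alone and on the 8-thread libraries. For 20 over 8 weeks in knockout-labelled cells it was 0, and 1 in DESeq2, which called 150 of 14405 genes there. The log2 fold change of Itgae between labels kept its sign and lay between -1.36 and -1.05 in the average, -1.00 and -0.68 at 20 weeks and -2.02 and -1.26 at 8 weeks. Of 1256 values over the 10 chains, the comparisons and the alternatives, 76 changed sign, all of chains other than Itgae and none called. They include Itgb2 at 8 weeks (15 alternatives), Itga4 (7) and Itgav (3) in the average, and Itgb7 (4), Itga4 (2) and Itgav (2) at 8 weeks.

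Each library correlated best with the library of its own number, also at 20 weeks, where the numbers were not taken as pairs. With the replicate block the log2 fold change of Itgae was -1.24 in the average, -0.86 at 20 weeks and -1.61 at 8 weeks, and the genes called numbered 19, 4 and 15, against 32, 8 and 29, with no call of a chain changed. DESeq2 called 76 in the average. Over the alternatives called genes numbered 3 to 32 at 20 weeks, 0 to 75 at 8 weeks, 9 to 35 in the interaction, 0 to 150 for time in knockout-labelled cells (9 as reported) and 7 to 498 for time in WT (74).

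Of the 5 genes most like Itgae, 3 remained with Spearman rho and 1 with deviations from group means. Depth limits Itga1, which had 0 to 42.0 reads, and 3 libraries per group limit the rest: the median gene had an SE of 0.25 on the log2 scale. The cause of these changes was not tested.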
